A study of Mus musculus with 4 samples.

Results

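The 6 genes described here were listed at a low level or 0 in one group of heart muscle cells and at a far higher level in the other. Tbx6, Avil, Trpv2, Pde6g and Slurp2 stood under 1 FPKM (fragments counted on a gene, divided by transcript length and library size) in the control and at 11.0 to 23.4 FPKM after overexpression of the splicing regulator RBFOX2, and Gm17428 stood at 90.9 FPKM in the control and was listed at 0 after it. The rule was a level under 1 FPKM in one group and at least 10 FPKM in the other. It was met by 34 of the 48432 rows of the authors' table, 22 (0.0454%) that were higher and 12 (0.0248%) that were lower in Rbfox2 OE. The 6 genes, chosen by these measured levels, are 5 of the 22 and 1 of the 12. Because both groups entered the rule, the difference between the groups in these genes is a description and was not tested.

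Messenger RNA had been sequenced from cardiomyocytes, which contract to make the heart beat and had been freed from mouse hearts by Langendorff perfusion. The MHC control group was 2 libraries with the genotype label MHC, and the Rbfox2 OE group was 2 libraries with the genotype label RbFox2, which overexpress RBFOX2. All mice were of a C57BL x FVB background and had eaten a doxycycline diet for 3 days. The labels used here give neither the promoter that drives the transgene, nor the age of the animals, nor how many animals went into a library. The title of the series places the experiment as a model of the non-muscle RBFOX2 isoform in myotonic dystrophy, an inherited disease of muscle and heart.

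RBFOX2 binds RNA at short GCAUG-containing elements and shifts the inclusion of nearby exons, so it is known for changing which isoform of a gene is made more than for changing whether a gene is transcribed. The 6 genes share no pathway. They encode a transcription factor of the embryo, an actin-bundling protein of sensory neurons, a cation channel, an inhibitory subunit of a photoreceptor enzyme and a secreted protein of skin and other epithelia, and the last is an annotated reading frame without a known product.

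Each value is the authors' pooled estimate for the 2 libraries of a group, given between bounds whose level is not stated, so the spread between libraries is unknown and no p-value was computed. Rbfox2 itself stood at 14.7 FPKM in control cells and 293 FPKM with overexpression, in the direction of the labels. The depth in reads is unknown. Of 12 cardiomyocyte markers, 11 were compared and 1, Myh6, had no estimate in either group (status HIDATA, a locus with too many fragments). Their summed level was 59677 FPKM in control cells and 37789 FPKM with overexpression, a sum carried by a few abundant genes such as Myl2. With separate bounds, 5 of the 11 were lower and 0 higher, and Ttn and Nkx2-5 had log2 ratios of 0.60 and 0.30 with overlapping bounds. In these bulk samples, fewer cells of a type and less RNA per cell cannot be told apart.

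Over the 11699 rows with a mean of at least 1 FPKM, the median log2 ratio (overexpression over control, each plus 1 FPKM) was -0.06, a scale that understates the change of low genes. All 6 genes passed that minimum, which each of them reached through the group where it was high, and all 6 had the status OK in both groups. The bounds of the groups did not overlap for any of the 6. For comparison, 6.67% of the rows compared had separate bounds and were higher in Rbfox2 OE, and 9.33% had separate bounds and were lower. A difference of at least 2-fold in either direction was found for 17.0% of the rows. These shares are given as background, since the rule used the same contrast.

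**Figure D1:**
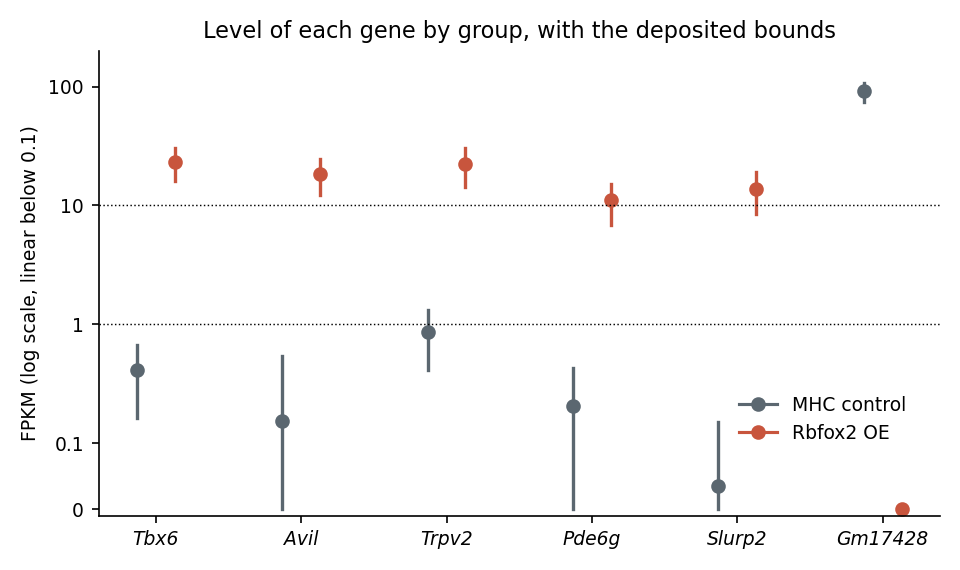
FPKM of the 6 genes (x axis) in MHC control and Rbfox2 OE, on an axis that is logarithmic above 0.1 FPKM and linear below; points are the authors' pooled values, bars the authors' bounds, and dotted lines mark 1 and 10 FPKM. The first 5 genes lie between 11.0 and 23.4 FPKM in Rbfox2 OE and below 1 FPKM in the control, and Gm17428 has the opposite order.

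The sequences that the results turn on are shown first, since the length, composition and position of these genes recur below. Gm17428 is annotated as a single exon of 93 bases, and its whole transcript on the gene strand is given with its longest run of purines, 88 bases, in capitals. For Tbx6, Avil and Trpv2 the 250 bases before the annotated gene start are given 5′ to 3′ on the gene strand, from RefSeq on GRCm38.p6, with matches to the motifs searched in capitals.
Gm17428, GRCm38 chr14:54976933-54977025, plus strand: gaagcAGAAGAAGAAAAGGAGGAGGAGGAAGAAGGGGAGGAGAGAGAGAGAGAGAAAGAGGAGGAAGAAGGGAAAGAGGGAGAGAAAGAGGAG
Tbx6, chr7:126781233-126781482, plus strand: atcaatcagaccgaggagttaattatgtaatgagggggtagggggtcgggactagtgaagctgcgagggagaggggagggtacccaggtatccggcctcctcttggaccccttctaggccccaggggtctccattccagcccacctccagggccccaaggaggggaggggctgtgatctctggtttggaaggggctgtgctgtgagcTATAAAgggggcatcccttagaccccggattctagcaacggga
Avil, chr10:127000459-127000708, plus strand: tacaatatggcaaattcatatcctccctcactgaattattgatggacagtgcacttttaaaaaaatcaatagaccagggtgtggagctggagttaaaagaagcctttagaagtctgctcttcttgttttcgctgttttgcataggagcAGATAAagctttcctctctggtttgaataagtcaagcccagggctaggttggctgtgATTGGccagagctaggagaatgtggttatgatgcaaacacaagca
Trpv2, chr11:62574236-62574485, plus strand: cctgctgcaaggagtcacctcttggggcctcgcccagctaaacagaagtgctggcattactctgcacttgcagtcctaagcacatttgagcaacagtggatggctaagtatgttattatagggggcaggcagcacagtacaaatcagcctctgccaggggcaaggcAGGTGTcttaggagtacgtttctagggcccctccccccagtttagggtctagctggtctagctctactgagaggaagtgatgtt

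Both strands of these 250-base windows were searched for 6 motifs. These were the TATA box written as TATAAA, the box CCAAT, the GC box written as GGGCGG and the T-box core written as AGGTGT, with AGATAA for factors of the GATA family and TGANTCA for the factor AP-1. Tbx6 held TATAAA with its first base at position -43, and 12.4% of 32851 RefSeq windows of the same length held that motif. Avil held AGATAA at position -102 from the start and a minus-strand CCAAT at -45, motifs found in 9.99% and 33.8% of windows. Trpv2 held AGGTGT at position -84, as did 11.8% of windows at some position. No motif was found in more than 1 of the 3 windows. GGGCGG and TGANTCA were in none of the 3, against 32.7% and 6.75% of all windows.

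Tbx6 encodes a T-box transcription factor that acts in the presomitic mesoderm of the embryo, where it commits cells to the somite fate. The gene (ENSMUSG00000030699, protein-coding, plus strand of GRCm38 chromosome 7 from 126781483 to 126785560) had a level of 0.415 FPKM in the control, with bounds of 0.164 to 0.667. In Rbfox2 OE it stood at 23.4 FPKM, with bounds of 16.2 to 30.6. The log2 ratio was 4.11, and even the nearest bounds were 24.3-fold apart. By log2 ratio Tbx6 was rank 20 of the 11699 rows compared, and 78.4% of those rows had a lower level in Rbfox2 OE.

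No other compared gene of the T-box family differed 2-fold. Of 17 family genes, 10 were under 1 FPKM in both groups and 7 were compared, and Tbx6 was the 1 gene at least 2-fold apart. The other 6 had log2 ratios from -0.68 to 0.80, all with overlapping bounds. Tbx5 and Tbx20, which act in heart development, stood at 16.8 and 14.7 FPKM in the control. In Rbfox2 OE they stood at 15.7 and 8.83 FPKM. Without Tbx6 the family median was 0.18, beside -0.06 over all rows compared.

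Genes that work with Tbx6 in the presomitic mesoderm were mostly low. Of 12 listed, Tbx6 included, 9 were under 1 FPKM in both groups. Msgn1, Mesp1, Cer1 and Ripply2 were listed at 0 in both. The Notch ligand Dll1 stood at 1.53 FPKM in control cells and 1.84 FPKM with overexpression, and the Notch modifier Lfng at 1.88 and 3.99 FPKM, each with overlapping bounds.

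Avil encodes advillin, an actin-bundling protein of the villin and gelsolin family known from sensory neurons and tuft cells. The gene (ENSMUSG00000025432, protein-coding, plus strand of chromosome 10 from 127000709 to 127020994) had a level of 0.154 FPKM in the control, with bounds of 0 to 0.539. In Rbfox2 OE it stood at 18.2 FPKM, with bounds of 12.2 to 24.3, a log2 ratio of 4.06. The nearest bounds were 22.5-fold apart.

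Avil is the 1 gene of the 6 whose exons overlap those of another annotated gene. It shares its locus in the table with Tsfm, which encodes a mitochondrial translation elongation factor on the opposite strand, and 165 of the 3398 exonic bases of Avil lie in Tsfm exons. Tsfm stood at 23.4 FPKM in control cells (15.4 to 31.5) and 13.4 FPKM with overexpression (3.38 to 23.4). Avil made up 0.654% of the summed FPKM of the locus in control cells and 57.7% with overexpression. The gain of 18.1 FPKM in Avil was larger than the change of -10.1 FPKM in Tsfm, and the summed locus had a log2 ratio of 0.41. Tsfm alone exceeds the low limit of the rule in both groups, so the pair summed by locus could not meet the rule whatever the level of Avil. The use of strand in counting is not given in the sources used here, so fragments from the overlapping exons cannot be told apart.

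In the villin and gelsolin family, 5 of 8 genes were compared, and 2, with Avil, were higher and 1 lower with separate bounds. Capg, an actin-capping protein abundant in macrophages, stood at 4.41 FPKM in control cells and 16.3 FPKM with overexpression. Svil, which encodes the muscle membrane protein supervillin, stood at 66.5 and 20.8 FPKM, also with separate bounds. Gsn and Flii had log2 ratios of 0.71 and -0.78 with overlapping bounds. Markers of tuft cells other than Avil were mostly low. Pou2f3, their defining transcription factor, stood at 0.0448 FPKM in control cells and 0.0731 FPKM with overexpression.

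Trpv2 encodes a calcium-permeable cation channel of the TRP vanilloid family, found in sensory neurons, macrophages and heart muscle. The gene (ENSMUSG00000018507, protein-coding, plus strand of chromosome 11 from 62574486 to 62600515) had a level of 0.862 FPKM in the control, with bounds of 0.408 to 1.32. In Rbfox2 OE it stood at 22.4 FPKM, with bounds of 14.4 to 30.5, a log2 ratio of 3.65. It was the highest of the 5 genes in the control, its upper control bound passed the 1 FPKM limit, and its nearest bounds were 10.9-fold apart.

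Other TRP channels were far closer between the groups. Of 27 listed, 18 were under 1 FPKM in both groups and 8 were compared, with Trpv2 the 1 gene 2-fold apart. The other 7 had log2 ratios from -0.74 to 0.68 and overlapping bounds. Trpv4, the one other vanilloid channel compared, stood at 1.14 FPKM in control cells and 1.64 FPKM with overexpression. The lysosomal channel Mcoln2, below the minimum of 1 FPKM, stood at 0.0882 and 1.07 FPKM with separate bounds.

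Many macrophage and fibroblast markers, and fewer endothelial ones, were also higher in Rbfox2 OE. Of 15 macrophage and leukocyte markers, 14 were higher with separate bounds, and their summed level was 186 FPKM in control cells and 639 FPKM with overexpression. Of 10 fibroblast markers, 6 were higher with separate bounds, and the sums were 485 and 961 FPKM. Of 10 endothelial markers, 4 were higher with separate bounds, and the sums were 260 and 462 FPKM. The part of these cells in the levels of the members was not tested.

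Pde6g encodes the inhibitory gamma subunit of the cyclic GMP phosphodiesterase of rod photoreceptors. The gene (ENSMUSG00000025386, protein-coding, minus strand of chromosome 11 from 120447605 to 120453500) had a level of 0.204 FPKM in the control, with bounds of 0 to 0.428. In Rbfox2 OE it stood at 11.0 FPKM, with bounds of 6.88 to 15.1, a log2 ratio of 3.32. It was the lowest of the 5 in Rbfox2 OE, just inside the limit of 10 FPKM, and its lower bound, like that of Slurp2, was under it.

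The catalytic subunits of the rod enzyme that Pde6g inhibits were at or near 0. Pde6b was listed at 0 in both groups, as was the cone subunit Pde6c, and Pde6a stood at 0.0130 FPKM in control cells and 0.0178 FPKM with overexpression. Of 16 phosphodiesterase and rod phototransduction genes, 14 were under 1 FPKM in both groups. The exception besides Pde6g was the broadly expressed delta subunit Pde6d, at 29.0 FPKM in control cells and 23.7 FPKM with overexpression with overlapping bounds.

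Slurp2 encodes a small secreted protein of the Ly6 and uPAR family that acts on nicotinic acetylcholine receptors and is known from skin and other epithelia. The gene (ENSMUSG00000075605, protein-coding, minus strand of chromosome 15 from 74742764 to 74746693) had a level of 0.0350 FPKM in the control, with bounds of 0 to 0.149. In Rbfox2 OE it stood at 13.7 FPKM, with bounds of 8.46 to 19.0, a log2 ratio of 3.83. The nearest bounds were 56.8-fold apart, the widest gap of the 5, on the lowest control level.

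Several other genes of the Ly6 and uPAR family were also higher. Of 23 genes, 10 were compared, and 6, with Slurp2, were higher and 1 lower with separate bounds, with a median log2 ratio of 1.39 without Slurp2. Ly6a, Ly6c1 and Ly6e, surface proteins of endothelial and blood cells, had log2 ratios of 1.53, 1.44 and 1.39 with separate bounds. Plaur, the urokinase receptor, stood at 2.67 FPKM in control cells and 12.2 FPKM with overexpression. These genes moved in the same direction as the macrophage and endothelial marker sums given above, and the part of such cells was not tested. Lynx1, a membrane-anchored relative of Slurp2 and its direct neighbour, went the other way, with 104 FPKM in control cells (73.0 to 136) against 28.4 FPKM (19.5 to 37.3), which is a log2 ratio of -1.84.

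**Figure D2:**
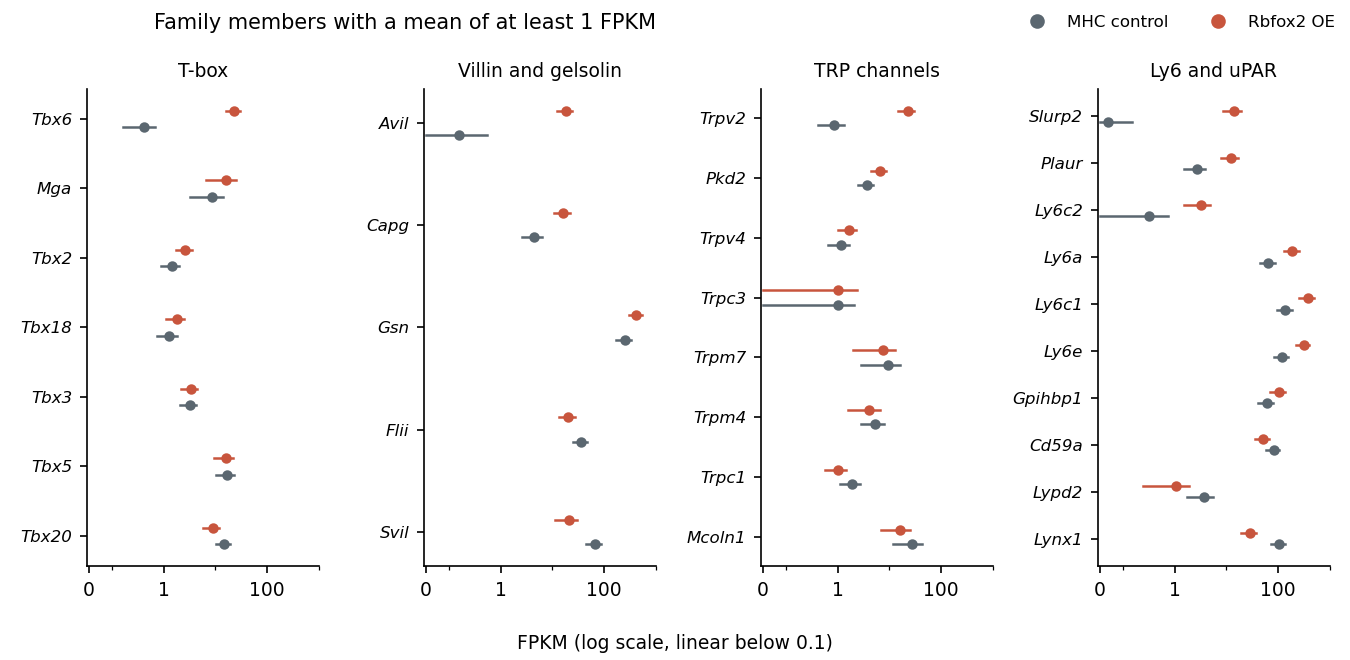
FPKM (x axis, logarithmic above 0.1 and linear below) of members of 4 gene families with a mean of at least 1 FPKM, in MHC control and Rbfox2 OE; points are the authors' pooled values and bars their bounds. Tbx6 and Trpv2 are the 2 genes with separate bounds in their panels, whereas Capg, Svil and several Ly6 genes also have separate bounds.

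Gm17428 (ENSMUSG00000090889, chromosome 14, 54976933 to 54977025, plus strand) is annotated as protein-coding, but it is a gene model without an assigned function. It stood at 90.9 FPKM in the control, with bounds of 73.8 to 108, and was listed at 0 with both bounds at 0 in Rbfox2 OE, so no fold is given. Its 93 bases lie inside intron 30 of the 40 introns of Myh7, on the opposite strand, 857 and 1557 bases from the exons on either side. Myh7 encodes the slow beta heavy chain of cardiac myosin.

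The transcript shown above holds 46 adenines, 46 guanines, 1 cytosine and 0 thymines, so that 98.9% of its bases are purines. Of the other annotated genes, 113 have a transcript that shares at least 1 stretch of 20 bases with it on the same strand, and 152 share one with its reverse complement. Among 37 rows of the table with an exonic length of 93 bases, Gm17428 was the 1 row above 0 in either group. Of 2440 rows with 80 to 110 exonic bases, 24 were above 0 in at least 1 group and 6 of those were above 0 in both. Values of such short rows came in steps. Several rows of 107 bases shared the value 22.0 FPKM in control cells, and Gm26127 stood at 44.1 FPKM. With overexpression several shared 19.6 FPKM, and Gm26427 stood at 39.2 FPKM. Fragment numbers are not given, so how few fragments the 90.9 FPKM of Gm17428 stand for is unknown.

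The per-length scale makes Gm17428 look as abundant as its host. Myh7 stood at 108 FPKM in control cells (77.1 to 139) and 68.5 FPKM with overexpression (48.3 to 88.8). The antisense RNA Mhrt, at the end of Myh7, stood at 90.3 and 74.2 FPKM with bounds that reach 0. Gm17428 made up 31.4% of the summed FPKM of the 5 rows in this locus in the control, but 0.805% once each FPKM was multiplied by the exonic length in kilobases. The length used in the authors' estimates is not given, so the latter figure is not a measured share of fragments. The locus summed to 289 FPKM in control cells and 143 FPKM with overexpression. Myh7 exceeds the low limit of the rule in both groups, so the sum could not meet the rule whatever the level of Gm17428. The nearby Myh6 locus has no estimate in either group.

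The position of the 5 higher genes was compared next, after their values were known. Tbx6, Avil, Slurp2 and Pde6g each lie a short way downstream of a gene that is expressed in both groups and transcribed in the same direction. The start of Avil lies 733 bases past the end of Ctdsp2, a nuclear phosphatase gene, and the start of Tbx6 lies 968 bases past the end of Ypel3. Slurp2 begins 1158 bases past the end of Lynx1, and Pde6g begins 3105 bases past the end of Oxld1. The sequences shown for Avil and Tbx6 therefore fall within these gaps. For Trpv2 the nearest such gene is Ubb, a ubiquitin gene, 21272 bases away.

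**Figure D3:**
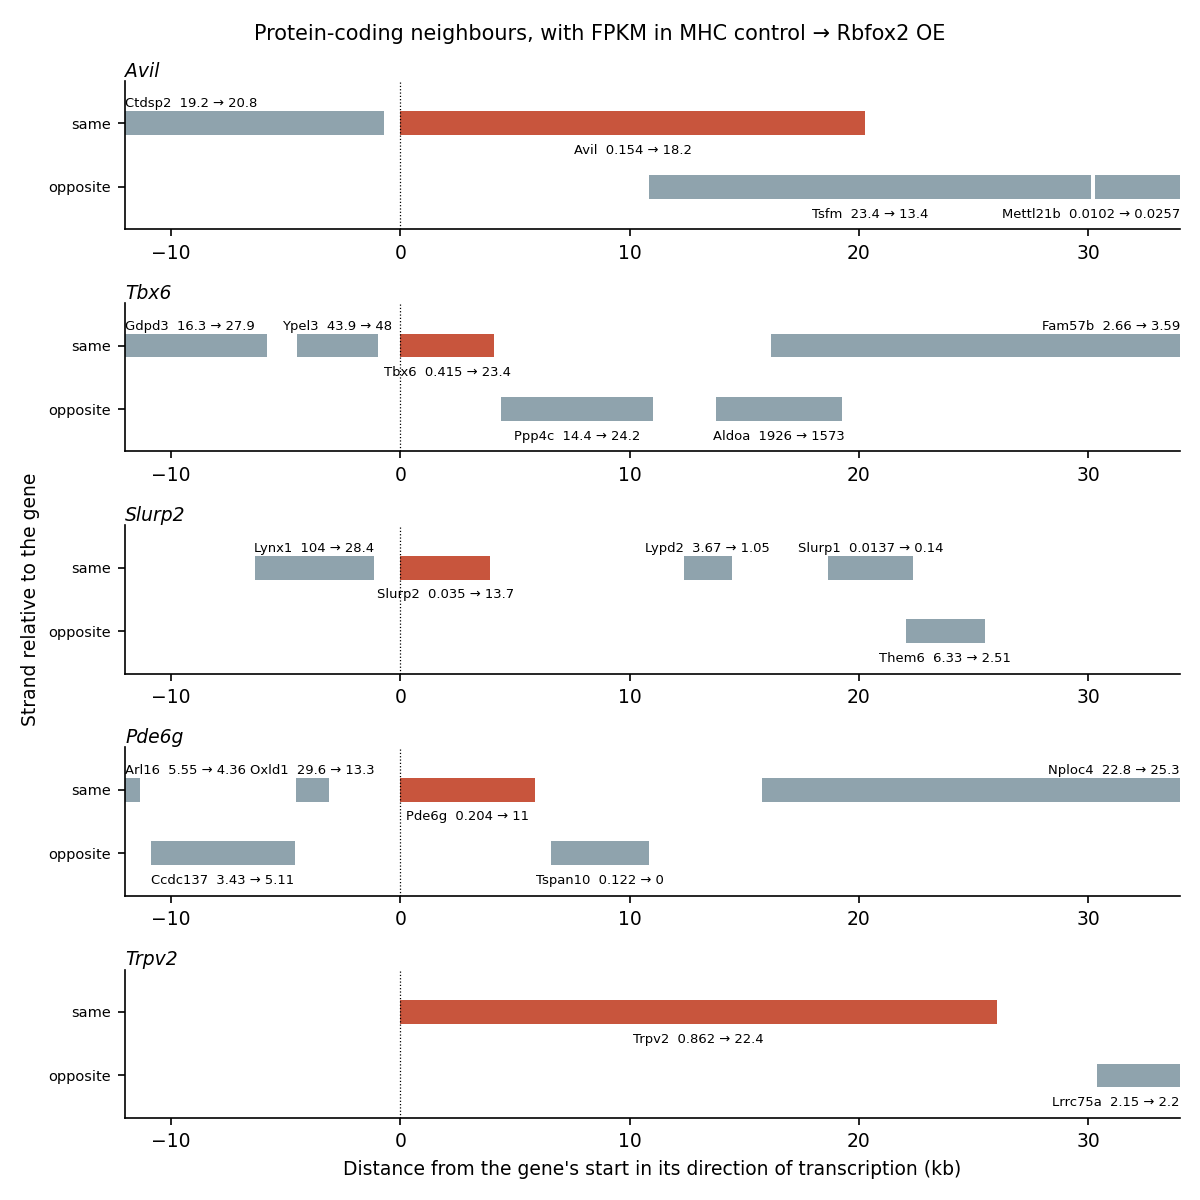
Annotated protein-coding genes around the 5 higher genes, drawn to scale by distance in kb from the start of each gene in its direction of transcription, on the same strand (upper row) or the opposite strand (lower row), each with its FPKM in MHC control and Rbfox2 OE. A same-strand gene ends 733 to 3105 bases before Avil, Tbx6, Slurp2 and Pde6g, and none is drawn before Trpv2.

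None of the 4 upstream genes was higher with separate bounds. Ctdsp2 stood at 19.2 FPKM in control cells and 20.8 FPKM with overexpression, and Ypel3 at 43.9 and 48.0 FPKM, both with overlapping bounds. Oxld1 stood at 29.6 FPKM in control cells and 13.3 FPKM with overexpression, and Lynx1 was also lower, both with separate bounds. Each member was under 1% of the level of its upstream gene in the control, at 0.805% for Avil, 0.947% for Tbx6, 0.0335% for Slurp2 and 0.687% for Pde6g. In Rbfox2 OE the same figures were 87.7%, 48.7%, 48.3% and 82.7%. The rule selected the members by these same levels, so the rise of the figures largely follows from the selection and is a description. For Slurp2 and Pde6g the lower level of the upstream gene in Rbfox2 OE raises them further. The table used here is at the level of genes and holds no value for the gaps between them.

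On the other side, the bounds of the nearest genes overlapped between the groups. Ppp4c, a phosphatase gene that converges on Tbx6 with 305 bases between them, stood at 14.4 FPKM in control cells and 24.2 FPKM with overexpression with overlapping bounds. Tspan10, 654 bases past the end of Pde6g, stood at 0.122 FPKM and was listed at 0. The noncoding 2410006H16Rik, 2361 bases past the end of Trpv2, stood at 15.3 and 32.5 FPKM, a log2 ratio of 1.04, with bounds that overlapped narrowly.

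The same position was counted over all protein-coding genes, and the members, whose position prompted the count, were then left out. Of 10888 such genes under 1 FPKM in the control, 291 (2.67%) have a same-strand protein-coding gene at 10 FPKM or more that ends within 5 kb before their start. Without the 4 members among them, 15 of 287 (5.23%) were at 2 FPKM or more in Rbfox2 OE, against 181 of 10596 genes (1.71%) without such a neighbour. None of the 287 was at 10 FPKM or more, and 2 of the 10596 were, Spp1 and Atp2a2. Atp2a2 had no estimate in the control (status HIDATA) and entered the count through its listed 0, so it cannot be called low there.

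Other arrangements were counted in the same way, without the members. With the expressed neighbour on the same strand but downstream, 9 of 216 genes (4.17%) reached 2 FPKM. With an opposite-strand neighbour the counts were 3 of 205 (1.46%) upstream and 9 of 313 (2.88%) downstream. Of genes under 1 FPKM in Rbfox2 OE, 244 had an expressed same-strand gene upstream within 5 kb, and 0 of them reached 2 FPKM in the control, against 113 of 10312 others (1.10%). Within 10 kb the counts in that direction were 4 of 383 (1.04%) and 109 of 10173 (1.07%). The groups of genes differ in gene density and level, and the shares are counts within these pooled values, with no test between them.

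**Figure D4:**
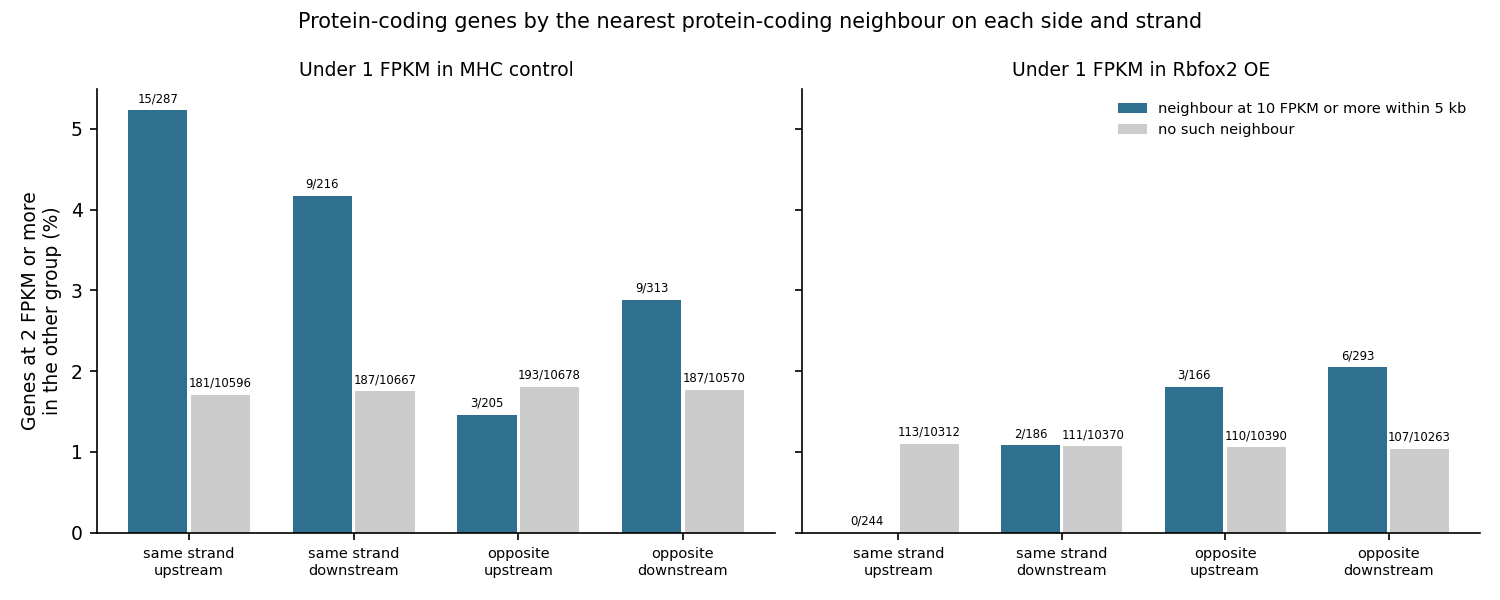
Percent of protein-coding genes, members left out, under 1 FPKM in one group that stood at 2 FPKM or more in the other (y axis), by whether the nearest protein-coding neighbour of a given strand and side lies within 5 kb and at 10 FPKM or more in the group where the gene is low; labels give genes over total. In the left panel the bar for a same-strand upstream neighbour stands at 5.23% (15 of 287) and that for a same-strand downstream one at 4.17% (9 of 216), and in the right panel the first is at 0 (0 of 244).

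The 15 genes in that position that are not members were lower than the members. Tm6sf2, Fxyd7 and Lat2 were the highest, at 4.64, 4.58 and 4.13 FPKM in Rbfox2 OE against 0.377, 0.247 and 0.597 FPKM in the control. Fxyd7, a small regulator of the sodium pump, begins 210 bases past the end of Fxyd1, the gene of phospholemman, at 751 FPKM in control cells and 395 FPKM with overexpression. The bounds were separate for 6 of the 15, and for 3 of the 15 the upstream gene was higher in Rbfox2 OE than in the control. Macrophage and leukocyte markers were also higher in Rbfox2 OE, as given above, and the part of such cells in the levels of the 15 was not tested.

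Most markers of sensory neurons and glia, photoreceptors and keratinocytes, cell types in which some members are known, were under 1 FPKM in both groups. Markers of macrophages and heart muscle cells, in which Trpv2 is also found, were mostly above that level, and their sums are given above. Of 12 sensory neuron and glia markers, 10 were under 1 FPKM in both groups. Of 8 photoreceptor markers, 7 were under 1 FPKM in both groups, and Nrl, Rcvrn, Prph2 and Pde6b were listed at 0. Of 10 keratinocyte and stratified epithelium markers, 9 were under 1 FPKM in both groups, and Krt4, Krt5, Krt13, Dsg3 and Ivl were listed at 0. Members of these marker lists above 1 FPKM, Uchl1, Stmn2, Rom1 and Krt10, had log2 ratios of 0.35, 0.01, 0.22 and -0.30 with overlapping bounds.

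**Figure D5:**
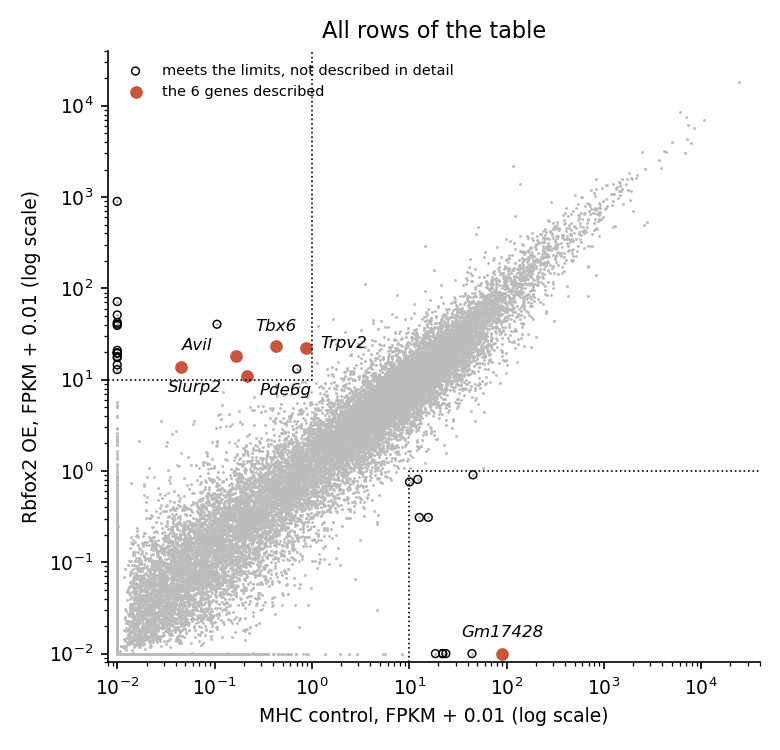
FPKM + 0.01 of all 48432 rows in MHC control (x axis) and Rbfox2 OE (y axis), both logarithmic; dotted lines bound the regions under 1 FPKM in one group and at least 10 FPKM in the other, filled points are the 6 genes described and open circles the other 28 rows in those regions. Many open circles lie on the axes, where a row is listed at 0 in one group.

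The members differ from most of the other 28 rows that met the rule. Of all 34 rows, 22 were listed at 0 in one group and 22 had an exonic length under 350 bases, mostly small nuclear and nucleolar RNA genes, and Gm17428 resembles these. Protein-coding genes numbered 7 among the rows higher in Rbfox2 OE and 4 among those lower. The 2 higher ones that are not members were Spp1, the matrix protein osteopontin, at 0.0959 and 40.4 FPKM, and Atp2a2, which had no estimate in the control. The lower ones besides Gm17428 included Gm4841 and Rbfox1, a splicing regulator of the same family as RBFOX2, which stood at 15.7 FPKM in control cells and had a log2 ratio of -3.68.

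The limits of the rule passed close to some rows. Just inside the limit of 1 FPKM were BC023105, at 45.2 FPKM in control cells and 0.898 FPKM with overexpression, and Trpv2. Just outside it were Gm31663, at 10.1 and 1.07 FPKM, and F830016B08Rik, at 57.9 and 1.07 FPKM. Just inside the limit of 10 FPKM were Gm16534, at 10.1 FPKM in control cells and 0.747 FPKM with overexpression, and Pde6g. Just outside it were Snord22, at 0.206 and 9.83 FPKM, and the chemokine Ccl5, at 0.837 and 9.53 FPKM.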

How the data were processed

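Polyadenylated RNA of 4 libraries, 2 per group, was sequenced from stranded TruSeq libraries, per the labels. The deposited table holds FPKM values with lower and upper bounds, pooled by the authors into 1 value per gene and group with Cuffdiff, per the file headers. The submitters' processing notes name Cuffdiff 2.2.1, STAR 2.4.2a and GRCm38, without saying what each did; the gene annotation and the use of strand are not given in the sources used here.

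Log2 ratios of overexpression to control were computed from them (pseudocount 1 FPKM), rows with a mean of at least 1 FPKM were compared, and rows were counted at 2-fold and where bounds were separate. Rows sharing a gene name (110 names) were kept apart. Genes, strands and exonic lengths came from GENCODE M21 (99.2% of identifiers matched) and windows before gene starts from RefSeq. Promoter windows were matched for 3 members. An upstream neighbour was the nearest protein-coding gene on the same strand ending before the start.

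The members, lists and tests were chosen with earlier results of these data known. The genes named were the members, their neighbours, rows meeting the rule or next to its limits, and up to 5 genes per list by log2 ratio, with list members near 0 and genes downstream of an expressed neighbour added after their values were seen. The calculations were tested on simulated data (Python 3.11.15, pandas 2.3.3). Alternatives covered the pseudocount, scaling, status, locus sums and the limits of the rule.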

Additional observations from a re-analysis of the deposited data

How the results depend on the processing

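No paired analysis was possible because no value of a single library is used here, each group having 1 pooled estimate, and for the same reason the fits without each library were not run. With a pseudocount of 0.1 the log2 ratios were 5.51 for Tbx6, 6.17 for Avil, 4.55 for Trpv2, 5.19 for Pde6g and 6.68 for Slurp2, and with a pseudocount of 5 they were 2.39, 2.17, 2.23, 1.62 and 1.89, because the control levels are near 0. Summed over its locus with Tsfm, Avil had a log2 ratio of 0.41. Gm17428 was left out of these alternatives, since the size of a ratio against a value listed at 0 depends on the pseudocount as well as on the control level.

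The 34 rows that met the rule became 15 with limits of 0.5 and 20 FPKM, 232 with limits of 2 and 5 FPKM, 18 when rows of a locus were summed and 20 when the bounds had to lie beyond the limits. Of the 6 members, 2 met the stricter limits (Tbx6 and Gm17428), 6 the looser ones, 4 the rule on locus sums and 3 the rule on bounds (Tbx6, Avil and Gm17428). The result on locus sums was fixed in advance. The 4 are alone in their locus, so the sum is their own value. Avil and Gm17428 share theirs with Tsfm and Myh7, which exceed the low limit in both groups. A pseudocount of 5 gave 863 rows at least 2-fold apart in place of 1988. Rescaling without mitochondrial and top genes moved the median log2 ratio to 0.07 and the 2-fold split from 815 higher and 1173 lower to 1060 and 913, and the separate bounds from 780 and 1091 to 1020 and 823. With the members left out, the share of control-low genes with an expressed same-strand gene upstream that reached 2 FPKM was 10.7% within 1 kb (8 of 75), 7.46% within 2 kb (10 of 134), 5.23% within 5 kb and 5.48% within 10 kb, distances chosen after seeing the data. With the members it was 13.0%, 9.49%, 6.53% and 6.33%. In the opposite direction it was 0 of 61, 0 of 106, 0 of 244 and 4 of 383. The depth in reads is unknown, which limits values near 0 most.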
